A study of Caenorhabditis elegans with 2 samples.

Results

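Chromatin bound by the BED zinc finger protein BED-1 was examined at the snoRNA genes of Caenorhabditis elegans, in ranked peaks whose summit lay within 200 bases of a gene that the Ensembl annotation calls a snoRNA gene. Each summit was counted once and assigned to the nearest such gene. Of 120637 ranked summits made from both replicates, 293 met this rule. The worms were of strain RW12201, in which CRISPR had inserted a tag of TY1, EGFP and 3xFLAG at bed-1 on chromosome V, and whole young adults aged 63 hours were taken after a starvation at the L1 larval stage that followed bleaching. Sonicated chromatin was precipitated with an antibody against GFP. The series held 2 biological replicates of this 1 group, so no comparison between conditions or genotypes existed, and untagged or input controls were not analysed here. In chromatin of whole worms, strong binding in few cells and weak binding in many cells cannot be told apart.

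Small nucleolar RNAs guide chemical changes to ribosomal and other RNAs: box C/D snoRNAs direct methylation of the ribose and box H/ACA snoRNAs direct the conversion of uridine to pseudouridine. Many snoRNA genes lie in introns of protein-coding genes, where the snoRNA can be cut out of the spliced intron of its host, and others are transcribed on their own. Genes for tRNAs are transcribed by RNA polymerase III from a promoter of an A box and a B box, to which the factor TFIIIC binds, and in C. elegans some snoRNA genes are preceded by similar elements. BED fingers are DNA-binding zinc fingers first described in the Drosophila proteins BEAF and DREF.

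Sequences just before some of the snoRNA genes are given below. They run on the strand of the snoRNA gene, 5′ to 3′, from 85 bases before its first base through its first 15 bases. They come from the RefSeq reference genome WBcel235 (ce11). Capitals mark a pair of boxes, each with at most 1 mismatch to its motif: an A box (TGGCNNAGT, where N is any base) and, 35 to 65 bases after it, a B box (GTTCNANNC). This rule was chosen after the sequences and the final-list calls had been seen. The first 6 genes had a peak in the authors' final list, and each had such a pair. C27H6.5 (chrV:9970257-9970356, minus strand) and Y43F8C.22 (chrV:19643173-19643272, minus strand) lay in introns on the strand of the host. T03F7.8 (chrV:11314173-11314272, plus strand) and C04G6.12 (chrII:5105217-5105316, minus strand) lay in introns on the opposite strand. W03C9.9 (chrII:11960813-11960912, plus strand) and T06C12.16 (chrV:15873912-15874011, minus strand) were intergenic. ZK994.7 (chrV:8500494-8500593, plus strand) had a strong final-list peak and no pair. The strongest snoRNA peak, at C51F7.4, also had no pair and is not shown. The same held for the intergenic gene ZK265.10, which had a strong final-list peak. Among all genes with a final-list summit, 21 had a pair and 11 did not. K11C4.6 (chrV:6888991-6889090, plus strand) had a pair and a ranked peak outside the final list. B0412.7 (chrIII:794657-794756, plus strand), in an intron of a ribosomal protein gene, had neither a pair nor a final-list peak.
C27H6.5: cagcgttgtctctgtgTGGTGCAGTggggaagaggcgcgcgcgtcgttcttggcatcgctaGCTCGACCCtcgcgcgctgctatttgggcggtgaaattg
Y43F8C.22: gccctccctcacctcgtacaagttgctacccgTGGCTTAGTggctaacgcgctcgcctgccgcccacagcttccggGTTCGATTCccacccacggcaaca
T03F7.8: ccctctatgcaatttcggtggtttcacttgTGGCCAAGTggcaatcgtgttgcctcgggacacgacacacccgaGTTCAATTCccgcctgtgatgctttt
C04G6.12: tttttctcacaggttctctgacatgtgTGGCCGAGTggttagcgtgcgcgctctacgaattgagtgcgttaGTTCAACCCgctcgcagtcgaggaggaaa
W03C9.9: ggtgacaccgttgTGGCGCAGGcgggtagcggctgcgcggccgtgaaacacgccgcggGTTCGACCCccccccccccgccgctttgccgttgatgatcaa
T06C12.16: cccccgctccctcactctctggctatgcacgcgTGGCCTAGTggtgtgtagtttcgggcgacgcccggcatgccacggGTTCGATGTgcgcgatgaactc
ZK994.7: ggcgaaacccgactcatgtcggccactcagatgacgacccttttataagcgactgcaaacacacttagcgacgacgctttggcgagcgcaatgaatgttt
K11C4.6: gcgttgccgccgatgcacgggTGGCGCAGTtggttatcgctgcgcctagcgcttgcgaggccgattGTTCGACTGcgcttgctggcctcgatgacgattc
B0412.7: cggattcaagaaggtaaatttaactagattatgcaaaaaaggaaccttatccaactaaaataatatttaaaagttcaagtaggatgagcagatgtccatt

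Of the 293 snoRNA summits, 31 (10.6%; 95% interval 7.30 to 14.7) were in the final list of both replicates, against 0.488% of all ranked summits. The final list held 589 peaks at an irreproducible discovery rate (IDR) of 0.01 or less. A low IDR means that a peak ranked high, and alike, in both sets of calls that were compared. The intervals here are exact Clopper-Pearson intervals that cover the counting of sites only, and neighbouring sites are not independent samples. Counted by gene, 256 of 346 snoRNA genes had a ranked summit within 200 bases and 32 (9.25%, 6.41 to 12.8) had one in the final list. The same share was 11.8% (72 of 612; 9.32 to 14.6) for tRNA genes and 6.20% (8 of 129; 2.72 to 11.9) for snRNA genes. Thus final-list peaks were found at a minority of snoRNA genes, at a share whose interval overlapped those of tRNA and snRNA genes. The 3 kinds of gene differed in how unique their sequence was. Every 31-base word around the summit occurred once in the genome at 27 of 31 final-list snoRNA summits. The same held at 4 of 63 tRNA summits and 2 of 8 snRNA summits of the final list. The part of repeated sequence in these shares was not tested.

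Peak strength is given as the authors' deposited signal, whose scale is not stated. Levels were ranked within a list, and across the replicates' lists they were set relative to the median of each list. The 293 snoRNA summits had a median signal of 32.6 (quartiles 20.6 and 49.8), and all ranked summits had a median of 23.5 (quartiles 14.9 and 33.1). The 31 in the final list had a median of 97.6 and ranged from 67.5 to 348. Signal and final-list status come from the same peak calls, so this gap is a description. By signal, 4 of the 31 were among the first 25 peaks of the final list and 15 among the first 100.

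Introns give the closest background for snoRNA genes inside host genes. Of ranked summits in introns, 15 of 106 with a snoRNA gene within 200 bases (14.2%, 8.14 to 22.3) were in the final list. Of the 35736 intron summits without one, 131 (0.367%, 0.307 to 0.435) were. In replicate 1's own lists the counts were 6 of 69 (8.70%) and 13 of 16722 (0.0777%), and in replicate 2's they were 8 of 73 (11.0%) and 17 of 17917 (0.0949%). The intervals of the 2 kinds of intron summit did not overlap in any of the 3 lists. Among windows in which every 31-base word occurs once in the genome, the counts were 14 of 91 (15.4%) and 73 of 26442 (0.276%).

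The 346 snoRNA genes fell into 4 positions. In 142, the gene lay in an intron of a protein-coding host on the host's strand, and in 27 it lay in an intron on the opposite strand. A further 124 were intergenic, and 53 overlapped an exon. A final-list summit lay within 200 bases of 10 of the 142 host-strand genes (7.04%, 3.43 to 12.6). The count was 5 of 27 opposite-strand genes (18.5%, 6.30 to 38.1), 13 of 124 intergenic genes (10.5%, 5.70 to 17.3) and 4 of 53 exon-overlapping genes (7.55%, 2.09 to 18.2). These intervals overlapped one another. The opposite-strand share exceeded the host-strand share by 11.5 percentage points, with a Newcombe interval from -0.203 to 29.9. The intergenic share exceeded the host-strand share by 3.44 points (-3.46 to 10.8), and the opposite-strand share exceeded the intergenic share by 8.03 points (-4.25 to 26.7). All 3 intervals held 0, so at these counts no order of the classes could be shown, and equal shares were not shown either.

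The final lists of single replicates were shorter, and in both the opposite-strand share was the highest of the 3. In replicate 2 the opposite-strand share (4 of 27) exceeded the host-strand share (4 of 142) by 11.998 points (2.16 to 29.7) and the intergenic share (5 of 124) by 10.8 points (0.545 to 28.6). In replicate 1 the opposite-strand share (2 of 27) exceeded the host-strand share (4 of 142) by 4.59 points (-2.21 to 20.6) and the intergenic share (7 of 124) by 1.76 points (-5.95 to 18.0). Only replicate 2's intervals, among these 4, lay above 0, and each rested on 4 opposite-strand genes.

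The positions had median signals close to one another. In the list from both replicates the median was 35.4 (95% interval 31.0 to 38.6) over 111 host-strand summits, 32.1 (25.1 to 38.2) over 110 intergenic summits, 29.4 (15.3 to 40.3) over 29 opposite-strand summits and 27.2 (21.0 to 44.4) over 43 exon-overlapping summits. These intervals overlapped, and the order of the medians turned with the list and the window. In replicate 1's list the medians were 26.1 (opposite strand), 24.1 (intergenic) and 21.8 (host strand), and in replicate 2's they were 23.8, 24.0 and 25.3. In the ranked peaks from which the conservative list was drawn, they were 35.3, 31.0 and 34.4. With summits within 100 bases of a gene, the medians relative to that of the whole list were 1.69, 1.61 and 1.51 in the same order, against 1.25, 1.37 and 1.51 within 200 bases. Of the host-strand summits, 9 of 111 were in the final list (8.11%, 3.77 to 14.8). The opposite-strand class had 5 of 29 (17.2%, 5.85 to 35.8), the intergenic class 13 of 110 (11.8%, 6.45 to 19.4) and the exon-overlapping class 4 of 43 (9.30%, 2.59 to 22.1). In every class the final-list peaks stood at the upper end of a wide range, as the plot of signal by position shows.

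**Figure D1:**
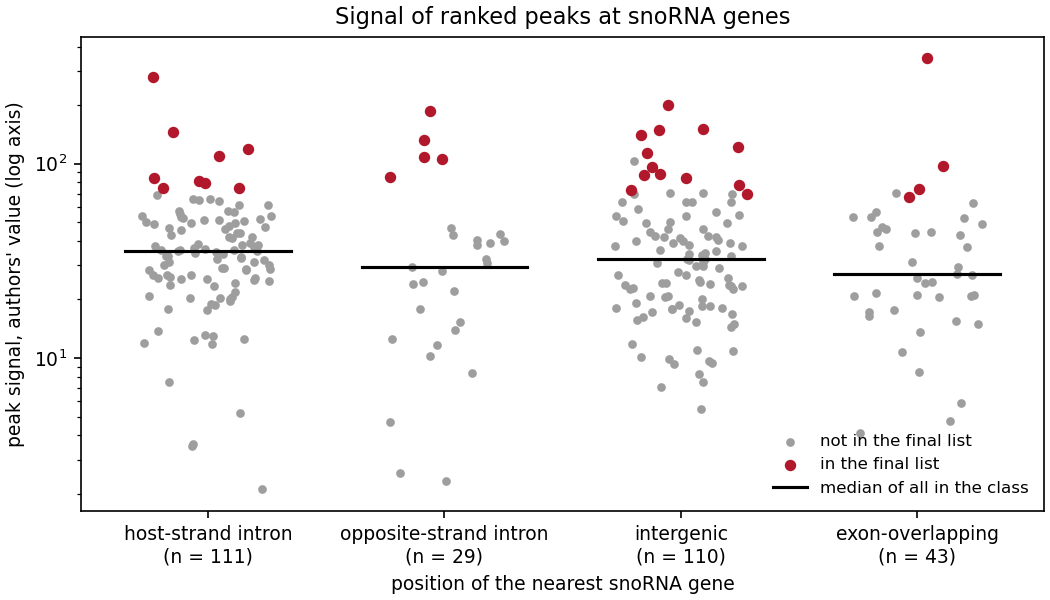
Signal of each of the 293 ranked summits (points, log axis) by the position of the nearest snoRNA gene, with the 31 final-list summits in red and the class median as a bar. The class medians lie between 27.2 and 35.4, while the final-list summits reach 348.

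Among snoRNA genes in introns on the host's strand, the highest signal was at ZK994.7, hosted by the peroxidasin gene pxn-1. Its signal was 281 from both replicates, 99.5 in replicate 1's list and 172 in replicate 2's. Its summit lay 3 bases before the first base of the snoRNA gene. C27H6.5, in unc-41, which encodes a stonin-like protein of synaptic vesicle recycling, had 145 from both replicates, 77.5 in replicate 1 and 67.0 in replicate 2. C10C6.8, in catp-8, a gene for a P-type ATPase, had 119, with 58.1 and 56.3 in the replicates. Y43F8C.22, in Y43F8C.7, had 109, with 41.0 and 63.1. The first 3 of these genes ordered alike in both replicates. The other 5 host-strand summits of the final list had signals from 74.8 to 84.2. They lay at D1046.6 in cfim-2 (a cleavage factor subunit that acts in 3′ end formation of mRNA), C05D2.15 in madf-11, W08G11.6 in W08G11.3, T08B2.13 in fars-1 (a phenylalanyl-tRNA synthetase) and F55A11.10 in F55A11.6. Over the 9 host-strand summits, the replicate values ranged from 27.1 to 99.5 in replicate 1 and from 39.1 to 172 in replicate 2. The tenth host-strand gene, C51F7.3, shared the summit of the exon-overlapping gene C51F7.4.

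The 5 opposite-strand peaks ran from 85.3 to 187. T03F7.8, in an intron of cutl-18, which encodes a cuticlin-like protein, had 187 from both replicates, 91.7 in replicate 1 and 94.6 in replicate 2. C27H5.9, in pdl-1, had 132, with 74.98 and 60.2. B0334.12, in twk-5, a potassium channel gene, had 108, with 30.5 in replicate 1 and 71.3 in replicate 2. C04G6.12, in mpk-2, which encodes a MAP kinase, had 106, with 34.6 and 67.0. ZK484.9, in haf-9, which encodes a half-molecule ABC transporter, had 85.3, with 53.1 and 35.1. The 2 replicates thus disagreed on the order of these genes below T03F7.8. B0334.12 was the lowest of the 5 in replicate 1 and the second highest in replicate 2, and its summit lay 61 bases past the end of the gene, 130 bases from its first base.

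Intergenic snoRNA genes gave 13 final-list peaks with a median signal of 95.9, from 69.7 to 199.7. W03C9.9 had 199.7 from both replicates, 76.6 in replicate 1 and 114 in replicate 2. ZK265.10 had 151, with 68.9 and 83.2, and T06C12.16 had 149, with 68.1 and 75.4. These were the 3 strongest intergenic members in the pooled list. Y75B12B.12 had 140, with 81.8 in replicate 1 and 60.2 in replicate 2, which was the highest intergenic value of replicate 1. The rest were T19B4.8 (122), F59C6.15 (114), T10B9.11 (95.9), ZK643.9 (88.7), F30H5.4 (87.3), C53B7.8 (84.5), C41C4.11 (77.8), Y53F4B.48 (73.3) and F32E10.10 (69.7), by signal from both replicates.

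The strongest snoRNA peak of all was assigned to a gene that overlapped an exon. At C51F7.4, within frm-7, a gene for a FERM domain protein, the signal was 348 from both replicates, 151 in replicate 1 and 192 in replicate 2, the highest of the 31 in each list. Its summit lay 37 bases inside C51F7.4. The same summit also lay before the first base of C51F7.3, within 200 bases of it. C51F7.3 is in an intron of frm-7 on the host's strand, so this peak could belong to either gene. The other 3 final-list summits at exon-overlapping genes were T27A3.9 (97.6), ZK546.18 (73.7) and K09H9.11 (67.5), the last within vbh-1, which encodes a DEAD-box RNA helicase.

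Each of the 31 final-list summits had a ranked summit within 100 bases in both replicates, against 108 of all 293. Replicate 1's own final list held 14 of its 194 snoRNA summits (7.22%, background 0.157% of its ranked summits). Replicate 2's held 14 of 208 (6.73%, background 0.161%). Of these, 9 lay within 100 bases of each other, which was 64.3% of each list. The lowest of replicate 2's 14 had a signal of 3.83, under the median of its ranked list, and its 6 intergenic summits lay at 5 genes. Of the 31, 12 were in replicate 1's final list, 12 in replicate 2's, 8 in both and 15 in neither. Those 15 therefore rest on the list made from both replicates. Over the 31, the log2 signals of the replicates correlated with r = 0.70. The median ranked signal was 16.9 in replicate 1's list and 18.3 in replicate 2's, and relative to these medians 15 of the 31 were higher in replicate 2. This r describes peaks chosen for being high in both and is no measure of the whole list. The list that the authors name conservative held 33 of 294 snoRNA summits (11.2%, background 0.432%), of which 29 were among the 31. T08B2.13 and K09H9.11 were the final-list members it lacked.

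**Figure D2:**
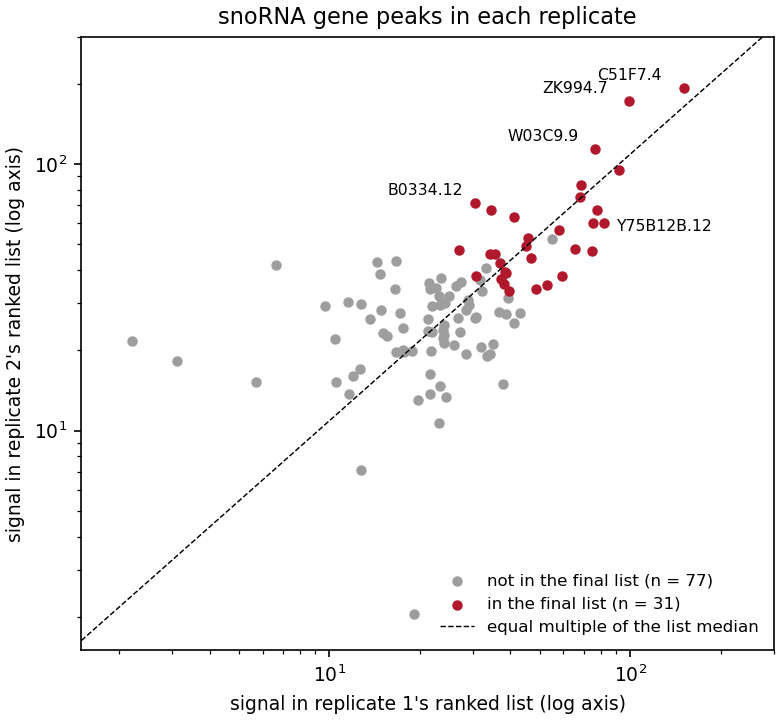
Signal in replicate 2's ranked list against signal in replicate 1's (both log axes) for the 108 snoRNA summits ranked in both, with the 31 final-list summits in red and a dashed line where both signals are the same multiple of their list's median. C51F7.4 is highest in both, and 15 of the 31 red points lie above the line.

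The highest snoRNA summits outside the final list were Y23H5B.10 (signal 104), T02E1.9 (70.9), Y74C9A.6 (70.4), T28B8.11 (70.3) and H09I01.2 (70.1). Y23H5B.10 had an IDR of 0.472 in the list from both replicates. It was nevertheless in the conservative list and in the own final lists of both replicates, with 54.9 in replicate 1 and 52.4 in replicate 2. At the limit of the rule, 16 summits lay in the last 20 bases inside it, with none in the final list, led by T28B8.11 (70.3), R166.7 (54.0) and ZC395.12 (46.1). A further 22 lay in the first 20 bases beyond it, with 1 in the final list, led by F39B2.14 (76.7), Y55F3BR.9 (75.4, the final-list one) and F28C6.11 (63.0).

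Final-list summits gathered just before the snoRNA gene. Their median position was 24 bases before its first base, and 28 of 31 (90.3%, 74.2 to 98.0) lay from 100 bases before to 50 bases after that base. For the 262 others the median was 49 bases past the first base, and 85 (32.4%, 26.8 to 38.5) lay in the same stretch. By place, 21 final-list summits were before the gene, 9 inside it and 1 beyond its end. The others divided into 107 before, 62 inside and 93 beyond. Read the other way, 28 of 113 summits in that stretch were in the final list (24.8%, 17.1 to 33.8), against 3 of 180 elsewhere (1.67%, 0.345 to 4.79). The rule did not use position along the gene, and peaks were 260 bases wide at the median of the final list, so a summit is not a base-exact site.

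The median position was before the first base in each of the 3 main classes, but not over exons. Median distances before the first base were 45 bases over 9 host-strand summits, 17 over 5 opposite-strand summits and 40 over 13 intergenic summits. Of the 5 opposite-strand summits, 3 lay before the gene. The 4 exon-overlapping summits had a median 26.5 bases past the first base. Of these, 2 lay in the stretch near it. Within the stretch near the first base, the final list held 9 of 40 host-strand summits (22.5%, 10.8 to 38.5), 4 of 10 opposite-strand summits (40%, 12.2 to 73.8) and 13 of 50 intergenic summits (26%, 14.6 to 40.3). These 3 intervals overlapped.

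**Figure D3:**
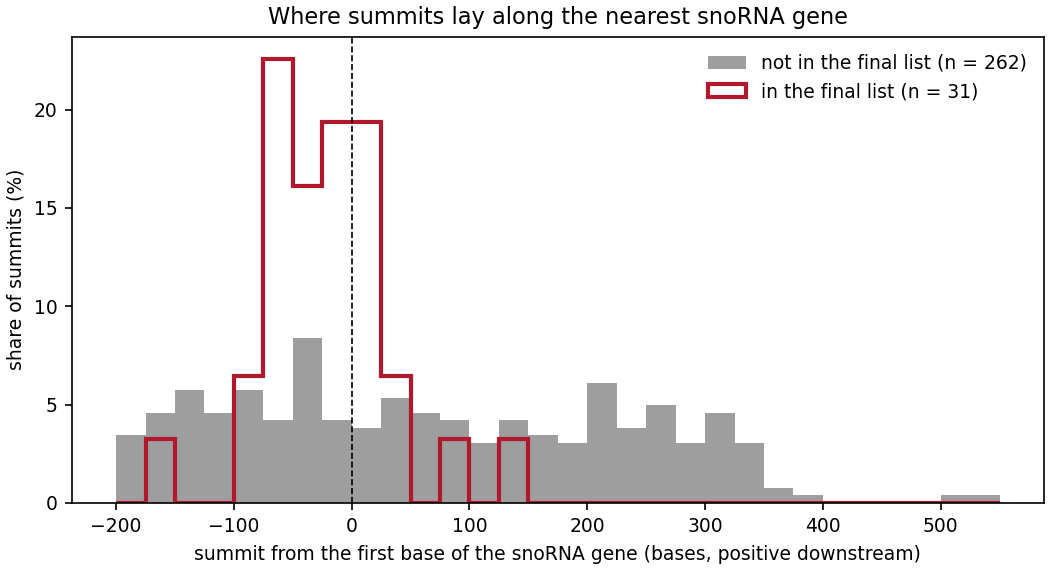
Share of summits in bins of bases along the nearest snoRNA gene, for the 31 final-list summits (red outline) and the 262 others (grey), with 0 at the first base of the gene. The red outline is concentrated from 100 bases before to 50 bases after the first base (28 of 31), and the grey bars spread over the whole gene and its flanks.

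Sequence around the summits was searched for the promoter motifs of tRNA genes on both strands, 100 bases to either side. The B box GTTCNANNC was found at 18 of 31 final-list summits (58.1%, 39.1 to 75.5) and at 34 of 262 other snoRNA summits (13.0%, 9.16 to 17.7). It was found at 8.30% of all ranked summits, and at 56 of 495 final-list summits away from snoRNA and tRNA genes (11.3%). At the 63 final-list summits near tRNA genes, the class that carries this motif within its genes, the share was 90.5%. Its core GTTCNA, which lies within the longer word, was at 21 of 31 final-list snoRNA summits (67.7%), against 34.7% of the others and 36.5% of all ranked summits. The A box TGGCNNAGT was at 9 of 31 (29.0%, 14.2 to 48.04), against 11 of 262 (4.20%, 2.11 to 7.39) and 2.32% of all ranked summits. It was at 16 of 495 final-list summits away from snoRNA and tRNA genes (3.23%). At final-list summits near tRNA genes it was at only 7 of 63 (11.1%, 4.59 to 21.6), so this word marked few of them, unlike the B box. For both boxes, the intervals of the final-list and other snoRNA summits did not overlap.

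The other words searched had overlapping intervals in these windows, and 1 of them did not in narrower ones. TATAAA was at 8 of 31 final-list summits (25.8%) and 14.9% of the others, with overlapping intervals (11.9 to 44.6 and 10.8 to 19.8). The C box TGATGA was at 29.0% and 19.1%, and the D box CTGA at 77.4% and 79.8%. The run TTTTT, which can end transcription by RNA polymerase III, was at 58.1% and 74.0%, against 80.9% of all ranked summits. Within 50 bases of the summit, TTTTT was at 5 of 31 final-list summits (16.1%, 5.45 to 33.7) and 138 of 262 others (52.7%, 46.4 to 58.8), against 59.1% of all ranked summits, so there the run was less frequent at final-list summits. It was at 36.6% of final-list summits away from snoRNA and tRNA genes. Among words bound by BED fingers of other animals, TATCGATA (Drosophila DREF) and TGTCGCGA (its human counterpart) were at 0 of 31, which allows up to 11.2%. The shorter CGATA (Drosophila BEAF) was at 6 of 31 (19.4%), against 16.8% of the others and 19.8% of all ranked summits. An absent word says only that these letters were not in the window.

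Final-list windows were also richer in G and C. The median share of G and C in the 201-base windows was 50.2% at final-list snoRNA summits and 41.8% at the others. It was 38.3% over all ranked summits and 45.8% over all final-list summits. The part of base composition in the motif counts, the T run included, was not tested.

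The A box and B box stood in order on the strand of the snoRNA gene. In the stretch from 150 bases before to 30 bases after the first base, a pair as shown in capitals above was found before 21 of the 32 genes with a final-list summit (65.6%, 46.8 to 81.4) and 20 of the other 314 (6.37%, 3.93 to 9.67). On the opposite strand of the same stretches, the counts were 1 of 32 and 7 of 314. At the starts of 19973 protein-coding genes, 0.951% had a pair by the same search. The rule for a pair was chosen after the sequences and calls had been seen, so these counts are a description. Without mismatches, on the gene's strand, the A box was found at 9 of 32 and 13 of 314 genes, and the B box at 18 of 32 and 23 of 314.

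Spacing varied little among these pairs. At the 21 final-list genes, the A box began 44 bases before the B box at the median (40 to 52), and in 19 of 21 the distance was 43 to 46 bases. At the 20 genes outside the final list the median was 44.5 bases, and 17 of 20 fell in the same span. The A box began 57 bases before the snoRNA gene at the median (50 to 101) and the B box 14 bases before it (5 to 55). The summit lay 15 bases past the start of the A box at the median (quartiles 1 and 49). At the 41 final-list tRNA summits with a pair of the same motifs, the median was 10 bases (quartiles 1 and 31). From 30 bases before to 75 bases after the start of the A box lay 16 of 21 snoRNA summits and 37 of 41 tRNA summits. The medians were thus close, the snoRNA summits spread more widely, and no test of the difference was made.

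**Figure D4:**
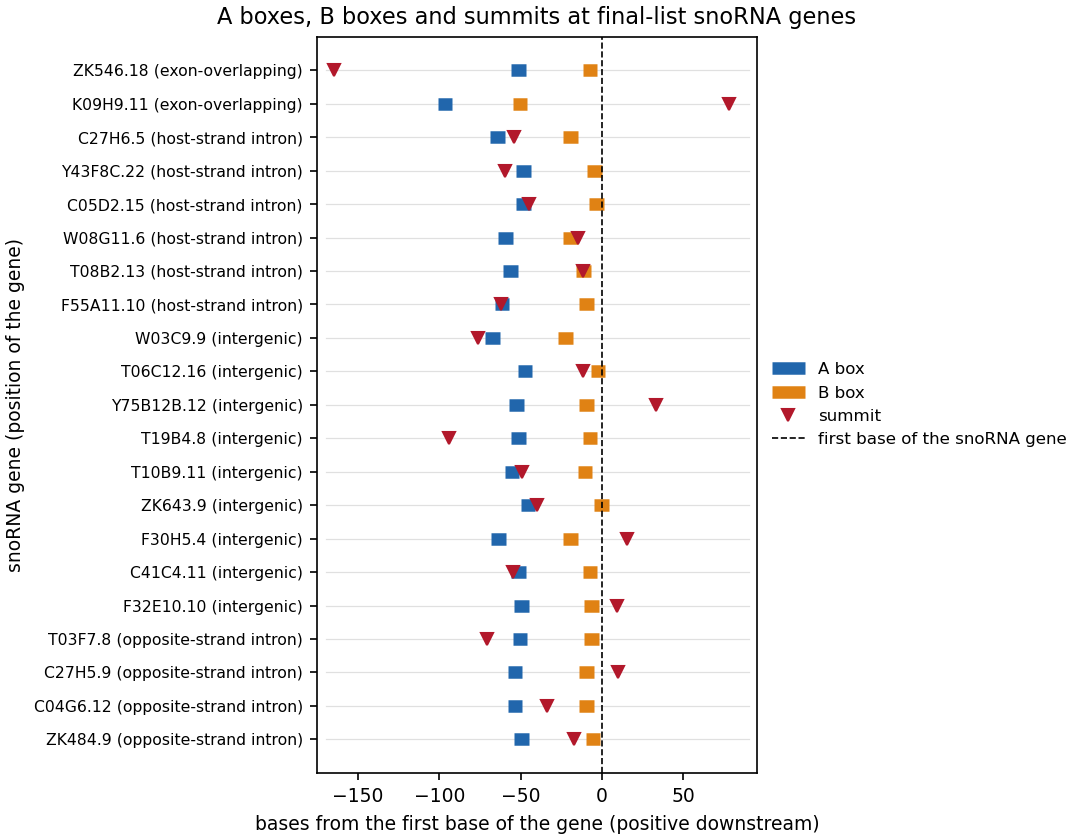
Map of the A box (blue), the B box (orange) and the summit (red triangle) for the 21 final-list snoRNA genes with a pair, in bases from the first base of the gene. The boxes line up just before the gene in most of them, and the summits scatter around them, with ZK546.18 and K09H9.11 farthest away.

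Most snoRNA genes without a pair had no final-list summit. With a pair, 21 of 41 genes had a final-list summit (51.2%, 35.1 to 67.1), and without one 11 of 305 did (3.61%, 1.81 to 6.36). The median of each gene's highest signal was 71.7 over the 38 pair genes that had a summit and 33.5 over the others. In the own final lists of the replicates, the counts were 8 of 41 with a pair in each, and 7 of 305 (replicate 1) and 6 of 305 (replicate 2) without. In the list from both replicates, the share was higher with a pair in each position. Of host-strand genes, 6 of 18 with a pair (33.3%, 13.3 to 59.0) and 4 of 124 without (3.23%, 0.886 to 8.05) had a final-list summit. Of opposite-strand genes the counts were 4 of 7 (57.1%, 18.4 to 90.1) and 1 of 20 (5%, 0.127 to 24.9), and of intergenic genes 9 of 14 (64.3%, 35.1 to 87.2) and 4 of 110 (3.64%, 1.00 to 9.05). Of exon-overlapping genes they were 2 of 2 (100%, 15.8 to 100) and 2 of 51 (3.92%, 0.478 to 13.5). The intervals with and without a pair were apart for host-strand, intergenic and exon-overlapping genes and overlapped for opposite-strand genes. The exon-overlapping gap rested on 2 pair genes. In the own final lists of the replicates, 0 of these 2 were present, against 2 of 51 (replicate 1) and 1 of 51 (replicate 2) without a pair. Because the rule for a pair was chosen after the calls had been seen, these gaps are a description.

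The share of genes that had a pair was 12.7% (18 of 142; 7.69 to 19.3) on the host's strand, 25.9% (7 of 27; 11.1 to 46.3) on the opposite strand and 11.3% (14 of 124; 6.31 to 18.2) between genes. Opposite-strand genes thus had both the highest share with a pair and the highest share in the final list, with intervals that overlapped those of the other positions in both measures.

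**Figure D5:**
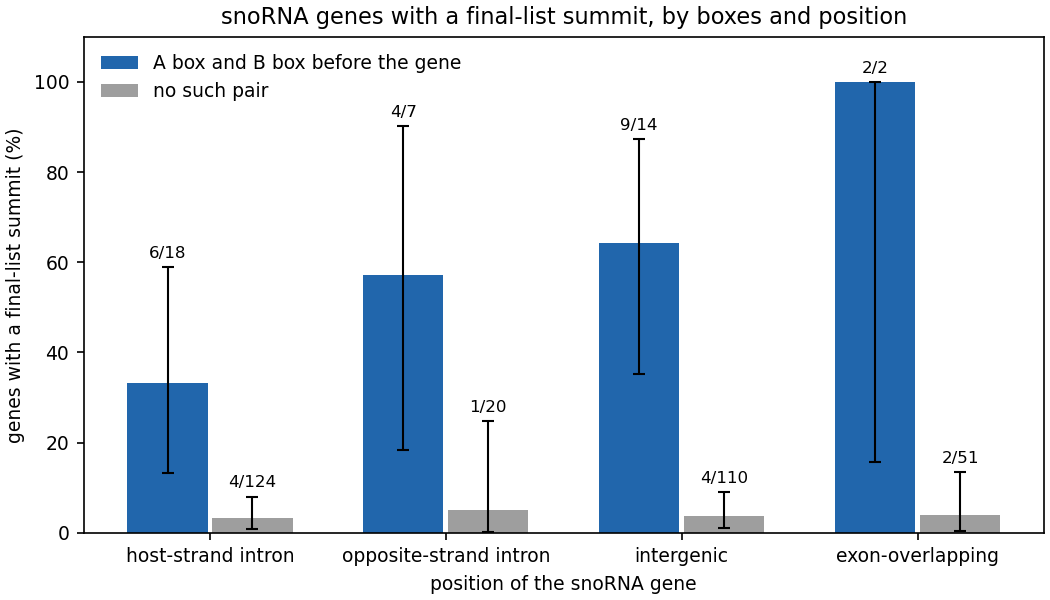
Share of snoRNA genes with a final-list summit, by position and by whether an A box and B box pair lay before the gene, with exact 95% intervals as error bars and gene counts above them. In each position the share is higher with a pair than without, from 33.3% against 3.23% on the host's strand to 100% (2 of 2 genes) against 3.92% over exons.

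Not every final-list gene had a pair, and not every gene with a pair was in the final list. Among the 11 genes with a final-list summit and no pair were C51F7.4, with the highest signal of all (348), and ZK994.7 (281). C51F7.3, which shares the summit of C51F7.4, was also among the 11. Of the 20 genes with a pair and no final-list summit, 17 had a ranked summit. The highest of these were K02C4.8, an intergenic gene with a signal of 69.7, and K11C4.6 in unc-70, the beta-spectrin gene, with 68.8. K11C4.6 was in the own final list of replicate 1.

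Genes for ribosomal proteins are common hosts of snoRNAs in animals. Of the 169 intronic snoRNA genes, 19 lay in 13 ribosomal protein genes, each on the host's strand. Ranked summits lay at 15 of them, with a median signal of 47.96 and a highest of 66.1 at B0412.7 in rps-29, beside the median of 35.4 over all host-strand summits. None of the 19 had a final-list summit (upper limit 17.6%), and none had a pair. Of the 3 in genes named as translation factors, the 4 in nol-56 (a core protein of box C/D particles) and the 3 in prp-8 and hrpu-2, hosts listed for splicing, none was in the final list either. These lists go by gene symbol and are not complete: uaf-1 and uaf-2, which encode the splicing factor U2AF, each held a snoRNA gene outside the lists, Y92C3B.4 and Y116A8C.50, neither of them in the final list. The tRNA synthetase gene fars-1, also outside the lists, held T08B2.13, which had a pair and a final-list summit. In all hosts outside the lists, 15 of 140 were (10.7%, 6.12 to 17.1), whose interval overlapped that of the ribosomal protein hosts, and 25 of 140 (17.9%) had a pair. Final-list genes lay in introns with a median length of 322 bases (201 to 1466), against 493.5 for the other intronic genes, and in the first intron in 2 of 15 and 43 of 154.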

How the data were processed

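Per the deposited file descriptions, peaks came from alignments to ce11, and each ranked list sets a pair of peak call sets against each other by IDR. Final lists also drew on 1 further file whose content is not stated. The tools for alignment and peak calling were not given in the sources used here. Lists were made by the authors per replicate and for both replicates together. The signal deposited by the authors for each peak has no stated scale. The deposited −log10 of the global IDR was used for IDR thresholds. Read counts were not used here, so the depth is unknown.

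Summits were set against Ensembl release 115 genes and the RefSeq WBcel235 genome with Python 3.11.15, pandas 2.3.3 and scipy 1.17.1. All 346 snoRNA genes had the same coordinates in RefSeq. Some genes share a summit (C51F7.3 and C51F7.4): 8 summits lay within 200 bases of 2 or more genes. Replicate values are those of the ranked summit within 100 bases. With 1 group of 2 replicates, no test was made. Named genes were the final-list members, the 5 highest others, the 3 highest per position and the limits of the rule; further genes were named after their values were seen. Scripts were tested on simulated data. Members, lists and classes were chosen with earlier results of these data known. Alternatives were other lists, windows, IDR thresholds, unique sequence and each replicate alone.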

Additional observations from a re-analysis of the deposited data

How the results depend on the processing

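Of 177 values recomputed under alternatives, 151 were counted as the same, 26 as moved and 0 as reversed. Some alternatives could not change a value, and theirs are among those counted as the same. The RefSeq snoRNA genes had the same coordinates at all 346 genes. Taking every ranked peak at or under the IDR threshold added 0 snoRNA summits to the final list. The count of 151 is thus no measure of stability. Some values counted as the same still shifted widely. The opposite-strand share of genes exceeded the intergenic share by 8.03 points in the main list and by 1.76 in replicate 1's. The opposite-strand share of summits was 17.2% within 200 bases of a gene and 31.25% within 100. The order of the class medians, which turned with the list and the window, was not itself counted. In the lists of single replicates, 14 snoRNA summits were in the final list. Host-strand genes with a final-list summit were then 2.82% and host-strand summits 3.45% to 3.53%, intergenic genes 4.03% to 5.65%, and intron summits without a snoRNA gene 0.0777% to 0.0949%. The host-strand median signal over the list median was 1.29 to 1.38 (1.51 in the main list). Pair genes with a final-list summit fell to 19.5% without either replicate, and were 70.0% with no mismatch allowed, an alternative chosen after seeing the data. At an IDR of 0.001 or less, 13 summits were left. Host-strand genes were then 2.11%, host-strand summits 1.80%, intergenic genes 4.84% and intergenic summits 5.45%. Unique windows gave 0.276% for intron summits without a snoRNA gene. Within 50 bases of the summit, the B box was at 11 of 31 (35.5%, against 6.87% of other snoRNA summits and 4.16% of all ranked), TATAAA at 4, TTTTT at 5 (16.1%, against 52.7% and 59.1%), TGATGA at 3, CTGA at 12 and CGATA at 3. Fewer bases were searched there. The single-replicate final lists are shorter. The opposite-strand summit share was 25% in replicate 2 alone, above 17.2% in the main list. No paired analysis was possible because there was 1 group. Depth is unknown, and 5 opposite-strand genes limit that class.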

Other observations

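Other non-coding genes lay close to some of the final-list peaks. A gene that Ensembl calls ncRNA was within 200 bases of 11 of the 31 final-list snoRNA summits (35.5%) and of 33 of the 262 others (12.6%). The share over all ranked summits is not given here. Final-list summits also lay more often near the first base of the snoRNA gene, and the part of position in these counts was not tested. None of the 31 had a tRNA or snRNA gene within 200 bases, and 1 of all 293 did. Examples are ZK484.10 beside ZK484.9, T19B4.9 beside T19B4.8, T27A3.12 beside T27A3.9, T03F7.14 beside T03F7.8 and both C05D2.16 and C05D2.17 beside C05D2.15. Which of the overlapping genes a peak belongs to cannot be told apart at the width of these peaks. Of the 31, 27 lay in windows of wholly unique sequence, and the least unique window had 74.9% of its 31-base words found once.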
